A study of Rattus norvegicus with 12 samples.

Results

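The genes of 8 plasma proteins made by the hepatocyte were read across rat liver after partial hepatectomy (PH), and 1 of them, the albumin gene ALB, carried the highest value of the whole table in a single column. They were ALB, TTR, RBP4, SERPINA6, AHSG, FETUB, AFM and GC, taken by symbol. The list was chosen with earlier results of these data known. The outlying ALB value was known beforehand, so that it is given as a description. All 8 symbols were found among the 14692 genes listed, and all 8 passed a mean of 1 RPKM over the columns, as did 8459 genes. RPKM divides the reads of a gene by the length of its transcript and by the reads of the whole library, so that levels of different genes can be set side by side. The 8 genes are expressed by hepatocytes, and all were abundant here, with SERPINA6 at the 396th place of the table by mean RPKM and ALB at the first.

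The livers came from male Sprague Dawley rats of 4 to 5 months. A biliary fistula, which diverts bile out of the body, or a sham operation was made 24 h before PH, and all rats carried a duodenal catheter with an infusion of saline. In 1 of the fistula groups sodium taurocholate (0.5 mg/g/day) was added to that infusion, beginning 12 h ahead of PH. Livers were taken at 0, 4, 12 and 24 h after PH, and the deposited table has 12 columns, 1 per group (3 groups) and time. The sham group is called Control here, and the fistula groups are called BA and BF as in the sample titles. The titles and the sample descriptions do not name the infused group alike, so no difference between BA and BF is tied to the infusion below. CYP7A1, whose product limits the synthesis of bile acids and which bile acids returning from the gut repress, was measured in Control, BA and BF at 60.0, 54.9 and 387 RPKM before PH and at 57.3, 68.8 and 334 RPKM at 24 h. BF was thus the group apart from Control, and these values were not used to name the groups. The authors averaged 2 runs into each column, the first of a single rat and the other of pooled RNA from 3 more, so that 4 rats stand behind a value. In a plain mean of the 2 runs the single rat counts as much as the 3 pooled rats together. With 1 averaged column per group and time there is no spread between rats, no read depth and no p-value, and a ratio of at least 2-fold on the log2(RPKM + 1) scale was only used to count genes. In whole liver, fewer hepatocytes and less RNA per hepatocyte cannot be told apart.

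The liver answers injury and inflammation by changing what it secretes. Positive acute phase proteins, such as fibrinogen, haptoglobin and alpha-2-macroglobulin, are made in larger amounts under interleukin-6 and glucocorticoid. Negative acute phase proteins are made in smaller amounts at the same time. Albumin holds the colloid pressure of the blood and carries fatty acids, bile acids and bilirubin. Transthyretin (TTR) carries thyroid hormone and, bound to retinol-binding protein (RBP4), vitamin A. SERPINA6 is corticosteroid-binding globulin. AHSG and FETUB are the fetuins, inhibitors of calcification and of proteases. Afamin (AFM) carries vitamin E, and GC is the vitamin D-binding protein.

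ALB, AFM and GC are members of 1 gene family. In the RefSeq GRCr8 assembly of the rat, used here for the order of genes, Afm, Afp and Alb follow each other on chromosome 14 and Gc lies on the same chromosome. Hrg, Fetub and Ahsg follow each other on chromosome 11. RefSeq promoters were matched for 5 of the 8 genes, ALB, TTR, RBP4, AHSG and GC, and were searched on both strands over the 250 bases before the start site. A stretch is shown for ALB, which carried the outlying value, and for its relative GC, which had the narrowest range of the 8 genes. Capitals mark the 6 letters GTTAAT, a form of the HNF1 site, and in ALB also a match to TTNNGNAAT, a form bound by C/EBP and PAR bZIP factors such as DBP.
ALB, chr14:17907050-17907159, minus strand, GRCr8: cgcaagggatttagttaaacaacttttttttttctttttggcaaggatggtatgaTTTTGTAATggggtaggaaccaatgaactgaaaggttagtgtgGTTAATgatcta
GC, chr14:18916025-18916134, plus strand, GRCr8: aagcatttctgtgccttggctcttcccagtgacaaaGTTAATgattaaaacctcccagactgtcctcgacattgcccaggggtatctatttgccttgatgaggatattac
GTTAAT was found in 6.45% of the 33469 RefSeq promoters and TTNNGNAAT in 10.9%. Among the 5 genes, GTTAAT was found in ALB and GC, and TTNNGNAAT in ALB and AHSG. The 2 motifs did not overlap in ALB. A match describes these letters only and shows no binding.

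ALB was measured at 99928, 81796, 45303 and 53967 RPKM in Control at 0, 4, 12 and 24 h. In BA it was at 87628, 303637, 41049 and 62342 RPKM. In BF it was at 90662, 78927, 41756 and 44249 RPKM. The other 11 columns thus held ALB between 41049 and 99928 RPKM, a 2.43-fold range, and BA at 4 h stood apart from all of them. The BA 4 h value was 4.87-fold above the median of the other 11 columns, a log2 ratio of 2.28, and 3.04-fold above the highest of them, Control at 0 h. It was 3.71-fold above Control at the same time, 3.85-fold above BF at the same time and 3.47-fold above BA at 0 h. By 12 h the BA column was back at the lowest ALB value of the table, 7.40-fold below BA at 4 h.

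**Figure D1:**
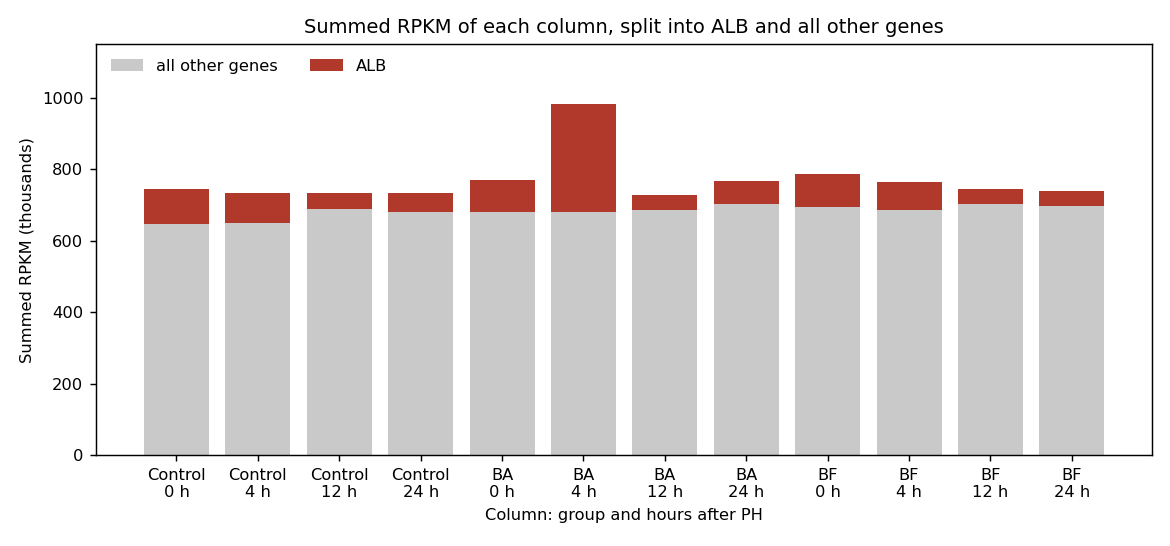
Bars give the RPKM of all genes summed in each of the 12 columns, in units of 1000 RPKM, with ALB in red and every other gene in gray; there is 1 averaged column per group and time and no error bar. The red part is widest in BA at 4 h, where ALB was 30.9% of the sum, and the gray part there, 679188 RPKM, lies inside the range of the other columns.

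ALB made up 30.9% of the summed RPKM of the BA 4 h column and between 5.60% and 13.4% of the sum in the others. The sum itself was 982826 RPKM in BA at 4 h and between 727435 and 785092 RPKM elsewhere. Without ALB, the sum at BA 4 h was 679188 RPKM, inside the range of 645657 to 703408 RPKM of the other columns. The excess of ALB over BF at 4 h was 224710 RPKM beside an excess of the whole sum of 217518 RPKM, and over BA at 0 h it was 216010 beside 213684 RPKM. Over Control at 4 h it was 221842 beside 250718 RPKM. ALB thus made up all of the excess of the column over the first pair of references and most of it over the last. Since RPKM is scaled to the reads of a library, a larger share of reads on ALB goes with lower values of other genes, while the summed value of the other genes lay inside the range of the other columns. The median gene of the 8459 was at a log2 ratio of -0.31 against its median in the other columns. Transcript lengths are not in the table, so the share of reads on ALB could not be computed, and the cause of the value was not tested. Values of the single runs were not analysed here, so whether both runs of this column held the high ALB level is unknown, and an error in the value cannot be told apart from a change in the livers.

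The other 7 genes did not share the high value. At BA 4 h TTR was at 9466 RPKM, RBP4 at 3309, AHSG at 6064 and GC at 9646 RPKM. FETUB was at 2814, AFM at 365 and SERPINA6 at 175 RPKM. The log2 ratios to the median of the other 11 columns ran from -0.51 for RBP4 to 0.33 for SERPINA6, with TTR at 0.03, FETUB at 0.08, AFM at 0.11, GC at -0.03 and AHSG at -0.22. None of the 7 reached 2-fold in either direction, where 3.39% of the 8459 genes were at least 2-fold higher and 9.39% at least 2-fold lower. With columns rescaled on the median gene, SERPINA6 was at 1.05 and the other 6 stayed within 2-fold. None of the 7 had its highest deposited value in this column. FETUB came nearest, with the third-highest of its 12 values, and RBP4 had the tenth. Together the 7 genes summed to 31838 RPKM at BA 4 h and to between 26987 and 51711 RPKM elsewhere.

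A ratio of 2 genes inside 1 column does not change with the scaling of the column. ALB exceeded GC 31.5-fold in BA at 4 h and between 4.18-fold and 9.68-fold in the other columns. Against TTR the ratio was 32.1, and 4.33 to 10.7 elsewhere. Against AHSG it was 50.1, and 4.40 to 12.97 elsewhere. For the rest of the genes the BA 4 h ratio was also the highest of the 12, at 91.8 for RBP4, 108 for FETUB, 832 for AFM and 1737 for SERPINA6. Among these the SERPINA6 ratio was the least separated, with 1447 in BA at 12 h, where SERPINA6 had its lowest value. Against haptoglobin (HP), a positive acute phase protein, the ratio was 6.61, below the 8.09 of Control at 0 h. Against transferrin (TF) it was 34.9, the highest of the 12. This choice of ratios was made after the values had been seen.

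The question whether the secreted proteins of the hepatocyte as a class shared the value was asked of a wider list of 69 such genes, among them apolipoproteins, clotting factors, complement factors and protease inhibitors. Of these, 62 were found, all with a mean of at least 1 RPKM. At BA 4 h 2 of the 62 were at least 2-fold higher than their median elsewhere and 3 were at least 2-fold lower, with a median log2 ratio of -0.02 beside -0.31 over all genes. The shares over all genes were the 3.39% and 9.39% given above, so that the list was near the first and had few genes lower. IGFBP1, which binds insulin-like growth factors, was at 1182 RPKM (log2 ratio 3.29), and AGT, the precursor of angiotensin, at 6220 RPKM (2.57). Both were also high at 4 h in the other groups, with IGFBP1 reaching 637 RPKM in Control and 406 in BF, and AGT reaching 3628 and 3039 RPKM. ALB differed from them in this respect, since its 4 h values in Control and BF were below those at 0 h. The 3 lower genes were MBL2, a lectin of innate immunity (-1.62), IGFALS, a partner of insulin-like growth factors in plasma (-1.35), and AFP, the fetal relative of albumin and its neighbor on the chromosome (-1.20). All 3 were also lower at 4 h than at 0 h in the other groups. MBL2 was at 61.0 RPKM beside 87.0 in Control and 65.2 in BF at 4 h. IGFALS was at 35.7 beside 73.6 and 64.3 RPKM, and AFP at 3.58 beside 8.24 and 4.88 RPKM. Of the 5 relatives and neighbors of albumin and the fetuins listed, AFP was the 1 beyond 2-fold, and HRG, a histidine-rich glycoprotein, was at 408 RPKM and KNG2 at 465 RPKM. Transferrin (TF), the iron carrier and itself a negative acute phase protein, was at 8697 RPKM at BA 4 h and between 7675 and 15612 RPKM in the other columns. The positive acute phase genes are a separate list, of which 8 of 28 found were at least 2-fold higher at BA 4 h (median 0.36), beside 3.39% of all genes. They were led by IL1RN, the interleukin-1 receptor antagonist, at 416 RPKM (3.25) beside 151 and 109 RPKM at 4 h in Control and BF. The reference here is mostly other times, and genes of this list were also high at 4 h in the other groups. MT2A was at 1668 RPKM beside 1271 and 1171 RPKM at 4 h in Control and BF, and MT1A at 1272 beside 885 and 843. STEAP4 was at 757 RPKM beside 243 and 408, and CD14 at 139 beside 81.0 and 38.7.

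**Figure D2:**
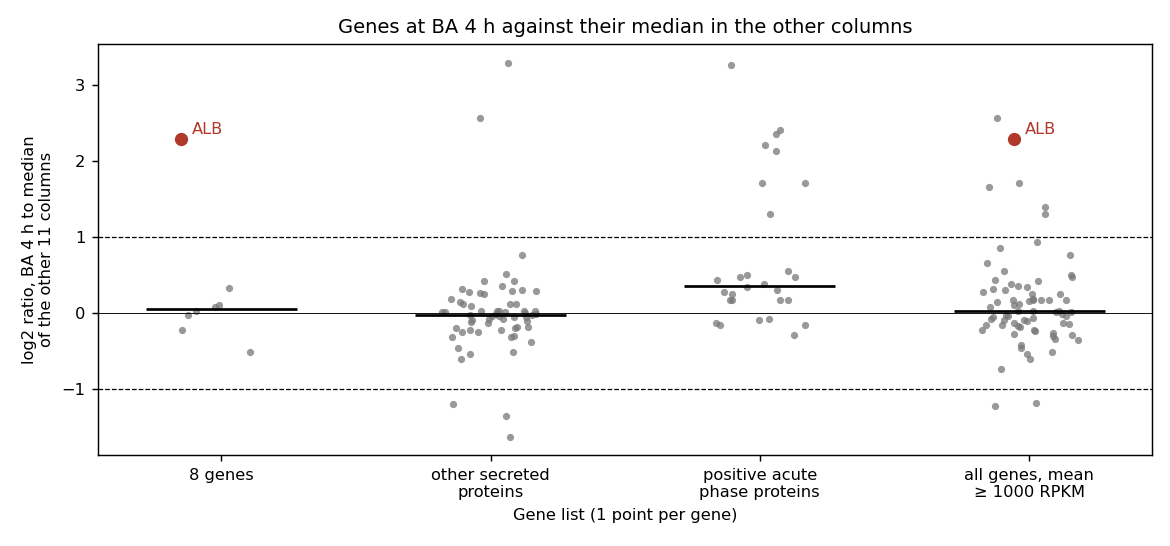
Points are genes, and the vertical axis is the log2 ratio of the BA 4 h column to the gene's median in the other 11 columns for 4 gene lists (means of 1 RPKM or more); black lines are list medians and dashed lines mark 2-fold. ALB lies at 2.28, while the other 7 genes of its list lie between -0.51 and 0.33 and the secreted proteins center on -0.02.

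Among the 73 genes whose mean reached 1000 RPKM, 6 were at least 2-fold higher at BA 4 h than their median elsewhere, and ALB was the only one also at least 2-fold above both other columns taken at 4 h. Over all 8459 genes 1.03% met the latter condition, 87 genes in number. Where the mean of the 12 columns reached 100 RPKM there were 4 such genes: ALB, HMOX1, SAT1 and TGM2. SAT1 and TGM2 passed that mean only through BA 4 h itself, since they averaged 63.6 and 94.0 RPKM over the other 11 columns. HMOX1, which breaks down heme, was at 1182 RPKM at BA 4 h, beside 279 RPKM in Control and 158 RPKM in BF at this time. SAT1, which acetylates polyamines, was at 924 RPKM, beside 126 and 95.8 RPKM. TGM2, a transglutaminase, was at 257 RPKM, beside 61.9 and 104 RPKM. The column therefore held other genes far from their usual level, at much lower abundance than ALB. As a plain ratio of RPKM, 20 genes with ALB counted were as far above their highest other column as ALB, at 3.04-fold or more. With the filters set on the other 11 columns alone, 16 such genes had a mean of 1 RPKM or more, and ALB and HMOX1 were the 2 that reached 100 RPKM. The 5 genes with a mean of 100 RPKM over the 12 columns furthest above their median in the other columns were SAT1 (4.02), HMOX1 (3.96), IGFBP1 (3.29), NAMPT (3.04) and LEAP2 (2.73). Like IGFBP1, the last of these were also high at 4 h in the other groups. NAMPT was at 673 RPKM beside 489 in Control and 346 in BF at 4 h. LEAP2 was at 653 RPKM in both BA and Control at 4 h and at 233 in BF.

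Marker genes of the cell types of the liver were not at an extreme in the BA 4 h column. All 12 hepatocyte markers outside the 8 genes were found, and they summed to 11578 RPKM at BA 4 h within a range of 6122 to 20872 RPKM over the columns. The 7 macrophage markers found summed to 201 RPKM at BA 4 h (range 146 to 245), the 3 endothelial ones to 50.6 (38.7 to 63.3) and the 6 stellate cell ones to 37.0 (29.9 to 64.1). The 4 cholangiocyte markers summed to 12.5 RPKM (7.91 to 19.9). The 4 neutrophil markers summed to 55.3 RPKM (3.11 to 63.1), the 3 erythroid ones to 193 (102 to 289) and the 6 pancreatic acinar ones to 1.02 (0.12 to 124, highest in BF at 12 h). In every list the BA 4 h sum lay inside the range of the other columns. No marker found was at 0 in every column.

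Known regulators of the albumin promoter did not stand as ALB did. Of 22 transcription factors listed, 20 were found, and at BA 4 h 2 were at least 2-fold higher and 7 at least 2-fold lower than their median elsewhere, with a median of -0.33. Of all genes 3.39% were higher and 9.39% lower, with a median of -0.31. DBP, a clock-controlled PAR bZIP factor first described at the albumin promoter, was at 0.98 RPKM at BA 4 h. In Control it was at 77.6, 17.9, 14.6 and 29.3 RPKM over the 4 times, in BA at 37.8, 0.98, 2.13 and 9.92 RPKM and in BF at 29.1, 3.57, 6.98 and 3.10 RPKM. DBP was thus at the lowest of its 12 values in the column where ALB was at the highest. TEF, of the same family, was at 3.08 RPKM (-1.77) and NFIA, a nuclear factor I, at 6.58 RPKM (-1.65). The 2 higher factors were ONECUT1, or HNF6, at 55.6 RPKM (1.58) and NFIL3, a repressor at PAR bZIP sites, at 87.0 RPKM (1.43). Both were also high at 4 h in the other groups, with 52.3 RPKM of ONECUT1 in Control and 36.3 in BF.

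After PH the 8 genes were mostly lower than at 0 h, and on the deposited values 12 h was the low point for most of them. In Control 7 of 8 genes were below their 0 h value at 4 h and all 8 at 12 and 24 h, except that FETUB at 12 h was at 0.01 with columns rescaled on the median gene. The lowest of the 4 times was 12 h for 6 of 8 genes in Control, 5 in BA and 6 in BF. This timing depended on the scaling. With columns rescaled on the median gene, ALB was lowest at 24 h in Control, at -1.23 beside -0.93 at 12 h. In BF it was at -1.45 beside -1.07. FETUB and GC were then lowest at 24 h in all groups, while SERPINA6 and AHSG stayed lowest at 12 h. The size of the change differed widely between the genes, from SERPINA6, which went down to 11.1% of its 0 h value in Control at 12 h, to GC, which stayed at 81.0% there.

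**Figure D3:**
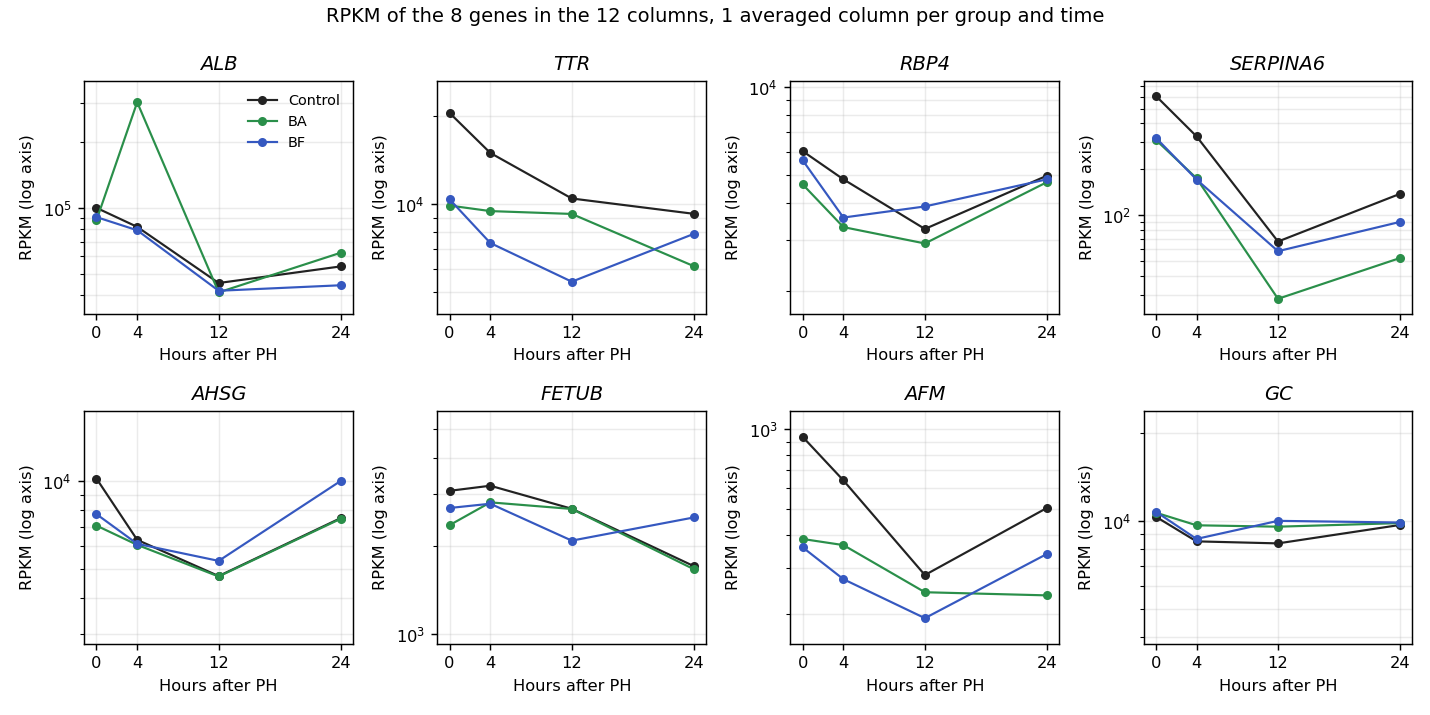
Each panel plots the RPKM of 1 gene, on a log axis whose span differs between panels, against hours after PH for Control (black), BA (green) and BF (blue); every point is 1 averaged column without error. ALB has a single high point, 303637 RPKM in BA at 4 h, SERPINA6 has its lowest value of each group at 12 h, and GC stays between 8363 and 10742 RPKM.

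At 4 h no gene was 2-fold lower in any group. In Control 0 of 8 were, where 5.19% of all genes were at least 2-fold lower, and the median log2 ratio to 0 h was -0.39 beside -0.19 for all genes. In BF 0 of 8 were (all genes 6.92%; medians -0.37 and -0.07). In BA 0 of 8 were (all genes 13.2%; medians -0.11 and -0.32), and ALB was the 1 gene at least 2-fold higher, as were 4.61% of all genes. The early time therefore showed small shifts in 7 of the genes, with SERPINA6 the most changed in each group, at -0.88 in Control, -0.83 in BA and -0.91 in BF.

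At 12 h 4 of 8 genes were at least 2-fold lower in Control, where 9.94% of all genes were. The 4 were ALB (log2 ratio -1.14), SERPINA6 (-3.15), AHSG (-1.11) and AFM (-1.73), and TTR (-0.97) and RBP4 (-0.88) came close to the limit. With columns rescaled on the median gene, ALB was at -0.93 in Control and in BA at 12 h, and AHSG at -0.90 in Control, just short of the limit. In BA 2 of 8 were, ALB (-1.09) and SERPINA6 (-3.41), beside 5.77% of all genes. In BF the 2 were again ALB (-1.12) and SERPINA6 (-2.45), beside 5.15% of all genes. The medians over the 8 genes were -1.04 in Control, -0.62 in BA and -0.71 in BF, while the median gene of the table was at -0.16, -0.13 and -0.05. On the deposited values all 3 groups thus showed ALB at 45.3% to 46.8% of its 0 h level at 12 h, a narrower spread than for any other gene of the 8. GC was there at -0.30, -0.16 and -0.10, and FETUB at -0.20, 0.18 and -0.37. With columns rescaled on the median gene, ALB was at -0.93, -0.93 and -1.07. GC was then at -0.09, 0.003 and -0.06, a narrower spread in log2 ratio than that of ALB.

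At 24 h 2 of 8 genes were at least 2-fold lower in Control (TTR at -1.15 and SERPINA6 at -2.12) beside 3.03% of all genes, 1 of 8 in BA (SERPINA6 at -2.55) beside 1.41%, and 2 of 8 in BF (ALB at -1.03 and SERPINA6 at -1.82) beside 1.88%. With columns rescaled on the median gene the count in Control was 5 of 8, with ALB at -1.23, TTR at -1.49, SERPINA6 at -2.46, FETUB at -1.20 and AFM at -1.23. The medians of the 8 genes were -0.87, -0.50 and -0.17, and the median gene was above 0 h in all groups, at 0.21, 0.15 and 0.28. AHSG was at 7493 RPKM in Control, 7452 in BA and 10046 in BF, from 4742, 4726 and 5345 RPKM at 12 h. ALB was at 53967, 62342 and 44249 RPKM, below its 0 h value in every group.

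**Figure D4:**
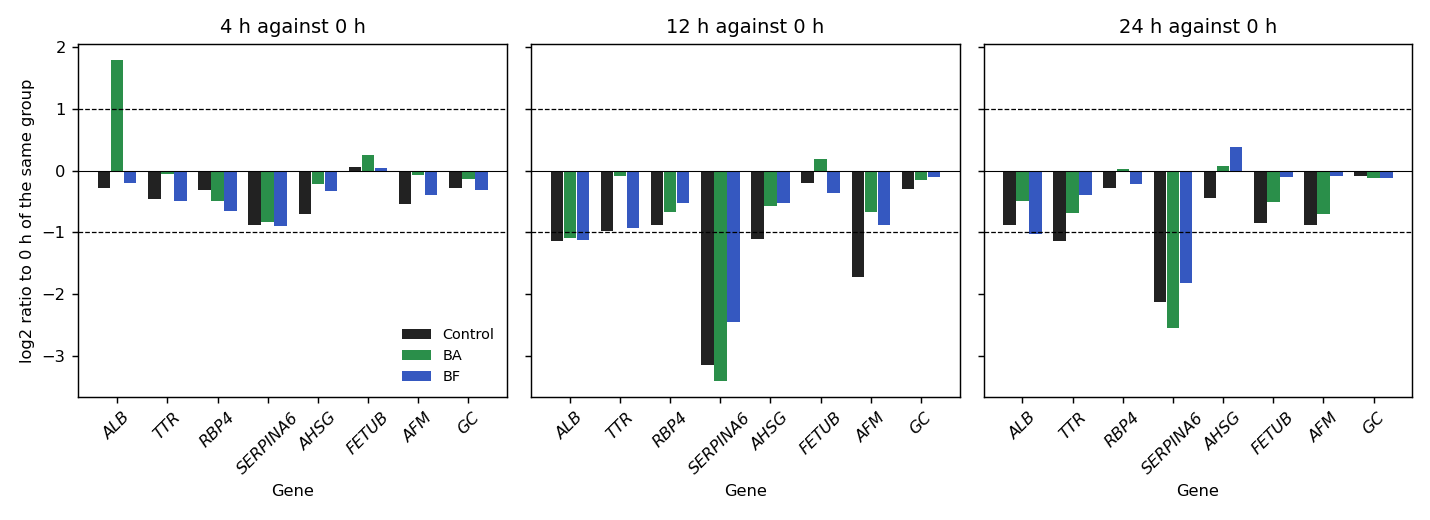
Bars show the log2 ratio of each gene to the 0 h column of its own group at 4, 12 and 24 h after PH, in Control (black), BA (green) and BF (blue), 1 averaged column each without error; dashed lines mark 2-fold. The single tall bar upward is ALB in BA at 4 h (1.79), and the longest bars downward are SERPINA6 at 12 h, at -3.15, -3.41 and -2.45.

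SERPINA6, the plasma carrier of corticosterone, covered the widest range. It was at 607, 329, 67.3 and 138 RPKM in Control over the 4 times, at 312, 175, 28.4 and 52.5 RPKM in BA, and at 322, 172, 58.2 and 90.6 RPKM in BF. Both fistula groups were near 50% of Control before PH, all groups were lowest at 12 h, and the 3 groups did not return to their 0 h level by 24 h. The highest of its 12 values was 21.4-fold above the lowest.

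TTR was at 20517, 14968, 10455 and 9263 RPKM in Control, at 9888, 9466, 9257 and 6130 RPKM in BA, and at 10390, 7362, 5427 and 7916 RPKM in BF. Control started highest and declined at each time, while BA stayed within a narrow band until 12 h. AFM showed a similar order, at 937, 641, 281 and 505 RPKM in Control, at 385, 365, 242 and 236 RPKM in BA, and at 358, 271, 193 and 338 RPKM in BF. Across the 12 columns TTR and AFM had a Pearson correlation of log2 values of 0.90, the highest of the 28 pairs, given as a description over columns that share their groups and times.

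RBP4 was at 6020, 4821, 3261 and 4965 RPKM in Control, at 4633, 3309, 2909 and 4718 RPKM in BA, and at 5602, 3568, 3893 and 4824 RPKM in BF. At 24 h the 3 groups lay between 4718 and 4965 RPKM. AHSG was at 10227, 6308, 4742 and 7493 RPKM in Control, at 7058, 6064, 4726 and 7452 RPKM in BA, and at 7725, 6113, 5345 and 10046 RPKM in BF. On the deposited values, low points at 12 h with a rise by 24 h were shared by RBP4 and AHSG in Control and BA, and their correlation was 0.85. The rise was smaller with columns rescaled on the median gene. RBP4 was then at log2 ratios to 0 h of -0.67 at 12 h and -0.62 at 24 h in Control, and -0.51 and -0.22 in BA. AHSG was at -0.90 and -0.79 in Control, and at -0.42 and -0.17 in BA.

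FETUB, the neighbor of AHSG on the chromosome, did not follow it. It was at 3082, 3208, 2676 and 1701 RPKM in Control, at 2351, 2814, 2671 and 1661 RPKM in BA, and at 2692, 2784, 2081 and 2499 RPKM in BF. In Control and BA its lowest value came at 24 h, when AHSG was above its 12 h value, and the correlation of FETUB and AHSG was -0.05. GC, the relative of albumin, was at 10322, 8498, 8363 and 9674 RPKM in Control, at 10657, 9646, 9540 and 9815 RPKM in BA, and at 10742, 8663, 9989 and 9858 RPKM in BF. Its highest value was 1.28-fold above its lowest, the narrowest range of the 8 genes, and its 0 h value was the highest of each group.

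ALB and SERPINA6 were more alike than ALB and any other of the 8 once the BA 4 h column was left out, with a correlation of 0.90 over 11 columns and 0.59 over 12. ALB and GC were at 0.25 over 11 columns and 0.16 over 12. The likeness of ALB to other genes over all 12 columns rested in part on 1 column. Of 4478 genes whose mean reached 10 RPKM, those nearest to ALB were STARD4 (0.90), SLC43A1 (0.89), MACF1 (0.87), SH3GL3 (0.85) and IL17RA (0.85). Without BA at 4 h they were at 0.85, 0.69, 0.57, 0.56 and 0.43. The genes nearest to the mean of the other 7 were RGD1310507, NREP, GSTM7, CD81 and TYMP, with correlations between 0.96 and 0.97 that hardly moved without that column.

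Before PH, 24 h after surgery, most of the 8 genes were lower in the fistula columns than in Control. At 0 h 7 of 8 were below Control in BA and the same 7 in BF, with GC the exception. The median gene was itself at -0.10 in BA and -0.18 in BF, and with columns rescaled on it 7 of 8 were below Control in BA and 4 in BF, where ALB (0.08), RBP4 (0.11) and FETUB (0.02) were then above it. In BA 2 of 8 were at least 2-fold lower, TTR (log2 ratio -1.05) and AFM (-1.28), where 2.15% of all genes were. In BF 1 of 8 was, AFM (-1.39), where 2.16% of all genes were, with TTR at -0.98. On the rescaled columns TTR was at -0.95 in BA, so that the count of 2 became 1. SERPINA6 was at -0.96 in BA and -0.91 in BF. Both comparisons use the same Control column, so that they are not independent of each other. ALB itself was at 87.7% of Control in BA and at 90.7% in BF.

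The positive acute phase genes were on the other side before PH. Of 30 listed, 28 were found, and 21 were at least 2-fold above Control in BA at 0 h and 20 in BF, where 1.87% and 1.73% of all genes were. Their medians were 1.71 and 1.45. Kininogen (KNG1), a relative of the fetuins and the source of bradykinin, was at 1036 RPKM in Control and at 11521 and 12811 RPKM in BA and BF, with the reservation that reads of near-identical rat kininogen genes can be shared. Haptoglobin (HP), the carrier of free hemoglobin, was at 12347 RPKM in Control and at 40904 and 44376 RPKM. At 12 h after PH the medians of BA and BF to Control were 0.01 and 0.06. Relative to 0 h, 21 of 28 were at least 2-fold higher in Control (all genes 3.96%), 9 in BA (1.29%) and 9 in BF (2.46%), with medians of 2.20, 0.51 and 0.17. In the 2 columns at 12 h of the fistula groups HP exceeded ALB, which was the most abundant gene in the other 10 columns.

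**Figure D5:**
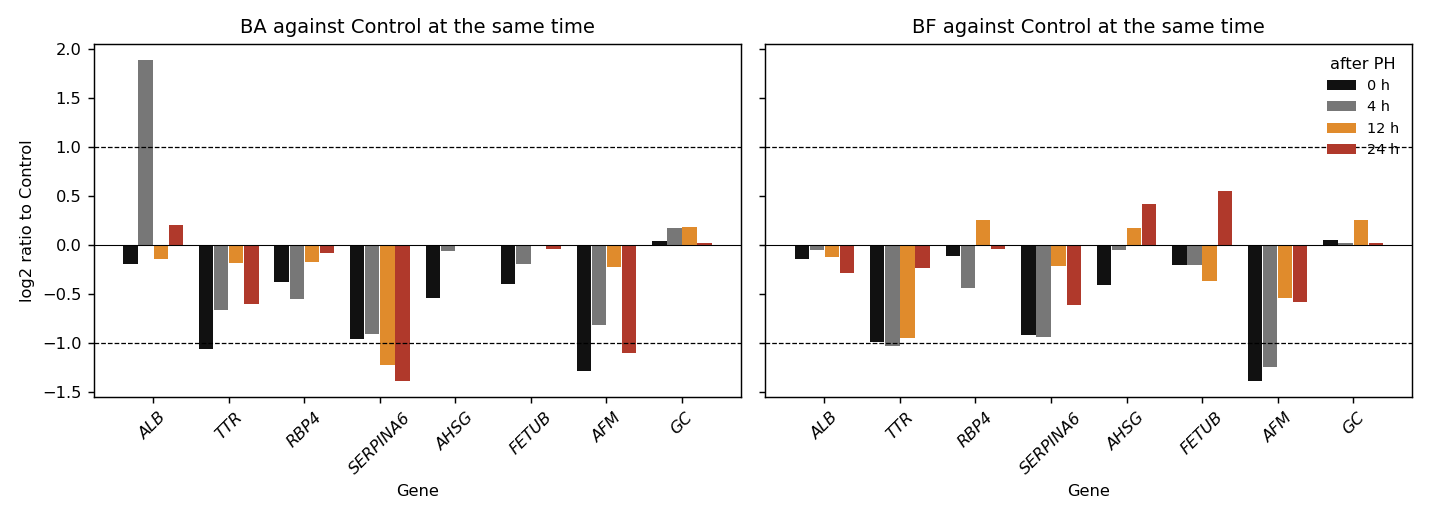
Bars show the log2 ratio of each gene to Control at the same time, for BA (left) and BF (right) at 0 h (black), 4 h (gray), 12 h (orange) and 24 h (red) after PH, 1 averaged column each without error; dashed lines mark 2-fold. TTR, SERPINA6 and AFM lie below Control at 0 and 4 h in both groups, GC lies near 0, and ALB in BA at 4 h (1.89) is the only bar above the upper dashed line.

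After PH the count of genes at least 2-fold below Control stayed between 0 and 2 in both groups. At 4 h BA had 0 of 8 at least 2-fold lower (all genes 5.26%) and ALB as the 1 gene at least 2-fold higher (all genes 2.02%). BF had 2 of 8 lower at 4 h, TTR (-1.02) and AFM (-1.24), beside 3.16% of all genes. At 12 h 1 of 8 was lower in BA, SERPINA6 (-1.22), beside 1.12%, and 0 of 8 in BF beside 1.68%. At 24 h 2 of 8 were lower in BA, SERPINA6 (-1.38) and AFM (-1.10), beside 1.32%, and 0 of 8 in BF beside 1.31%. SERPINA6 in BA was thus below Control at each time, between 38.0% and 53.1% of it.

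Directly between the fistula groups few of the genes differed by 2-fold. At 0 h none did, where 0.426% of all genes were at least 2-fold higher in BF, and the ratios of BF to BA ran from -0.10 to 0.27. At 4 h ALB was the 1 gene at least 2-fold lower in BF (-1.94), as were 2.33% of all genes, and the other 7 ran from -0.43 to 0.11. At 12 h SERPINA6 was the 1 gene at least 2-fold higher in BF (1.01), as were 1.16% of all genes, at 58.2 RPKM beside 28.4 in BA. At 24 h none was, where 0.887% of all genes were at least 2-fold higher in BF, and 7 of 8 were above BA with a median of 0.40, or 5 of 8 with columns rescaled on the median gene. On the deposited values ALB was the exception at that time, at -0.49.

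Genes that handle the ligands of these carriers were read from a list of 22, of which 19 were found and 13 had a mean of at least 1 RPKM. Relative to 0 h, 8 of the 13 were at least 2-fold lower in Control at 12 h, 7 in BA and 2 in BF, with medians of -1.07, -1.07 and -0.71. Of all genes 9.94%, 5.77% and 5.15% were, with medians of -0.16, -0.13 and -0.05. None of the 13 was 2-fold higher. At BA 4 h 2 of the 13 were at least 2-fold below their median elsewhere, CYP2R1, a vitamin D 25-hydroxylase, at 3.12 RPKM (-1.26) and the thyroid hormone receptor THRB at 2.81 RPKM (-1.12). LRAT, which esterifies retinol, was at 1.67 RPKM there (-0.63) and marks stellate cells as well. Of 10 genes of inflammatory signaling 8 were found, and 3 were at least 2-fold higher at BA 4 h, beside 3.39% of all genes: SOCS3 at 85.1 RPKM (1.53), JAK2 at 13.6 RPKM (1.33) and STAT3 at 220 RPKM (1.05). STAT3, the transcription factor below interleukin-6, was at 198 RPKM in Control and 192 RPKM in BF at the same time.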

How the data were processed

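RNA of whole rat liver (poly(A)+ RNA selected from total RNA, TruSeq libraries) had been sequenced in 3 groups at 4 times. The authors converted reads to RPKM and deposited 1 table with 2 decimals, each column the mean of 2 runs (1 rat, and pooled RNA of 3 rats). The submitters' processing notes name CASAVA, Bowtie 0.12.2 and the builds rn4 and mm8, without their roles. All columns were mapped by title. The depth per sample is unknown, and precision could not be estimated.

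Ratios were log2(RPKM + 1). Counts used a 2-fold limit and the 8459 genes whose mean reached 1 RPKM; of 14692 listed, 1 had no value and 12388 were above 0. No test was run: each group has 1 column per time, and a fit across times would take differences of the groups in time as its error. The 8 genes and all lists were chosen with earlier results of these data known. Also named are, per list, up to 5 genes furthest from the median of the other columns at BA 4 h, and the 5 genes most like ALB or the other 7 by Pearson correlation of log2 values. KNG1, HP, TF and genes 2-fold above both other 4 h columns were chosen after their values were seen. Alternatives were another pseudocount, rescaled columns, a 1.5-fold limit and other filters, of which the filter on 11 columns was added after seeing the data. Python 3.11.15, numpy 2.4.6, pandas 2.3.3 and matplotlib 3.10.9 were used. Sequences and gene order are from RefSeq GRCr8.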

Additional observations from a re-analysis of the deposited data

Results flagged for a closer look

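In 4 cases the change of a gene from 0 h on the deposited values had opposite signs in the 3 groups, which are single averaged columns. None of these differences was tested. ALB at 4 h was higher in BA (log2 ratio 1.79) and lower in Control (-0.29) and BF (-0.20), a span of 2.08. RBP4 at 24 h was at 0.03 in BA, -0.28 in Control and -0.22 in BF (span 0.30). AHSG at 24 h was at 0.08 in BA, 0.38 in BF and -0.45 in Control (span 0.83). FETUB at 12 h was at 0.18 in BA, -0.20 in Control and -0.37 in BF (span 0.56). With columns rescaled on the median gene, ALB kept its opposite signs (2.06, -0.16 and -0.19), while RBP4 (-0.22, -0.62 and -0.63) and AHSG (-0.17, -0.79 and -0.03) were lower in all groups, and FETUB was at 0.35 in BA, 0.01 in Control and -0.32 in BF. Rescaling also brought opposite signs that the deposited values lacked. At 4 h in BA, Control and BF, TTR was then at 0.21, -0.33 and -0.48, and AHSG at 0.05, -0.57 and -0.32. AFM was at 0.19, -0.42 and -0.39, and GC at 0.13, -0.15 and -0.30. At 12 h TTR was at 0.07, -0.76 and -0.89, and GC at 0.003, -0.09 and -0.06.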

How the results depend on the processing

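The 12 columns have no replicates, so no column could be left out within a group and no spread, depth or interval was known; a small change cannot be told from variation between rats. Groups share times but no replicates, and no fit paired by time was run. ALB at BA 4 h stayed at least 2-fold higher under both other pseudocounts, all 3 ways of rescaling and each single reference, with log2 ratios against the median of the other columns between 1.92 and 2.80. Of 365 values recomputed with another pseudocount or scaling, 343 stayed on the same side of the limit or moved little, and no called value changed sign. The pooled count says little, since genes this abundant could hardly move with the pseudocount. Under 0.1 RPKM 73 values stayed the same, and under 10 RPKM 72. With columns rescaled on the median gene 60 stayed the same, 7 moved and 6 became weaker.

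With columns rescaled on the median gene, 1 of the other 7 genes, SERPINA6 (1.05), passed 2-fold at BA 4 h. Under it the count of genes at least 2-fold lower than at 0 h became 2 in Control and 1 in BA at 12 h and 5 in Control at 24 h, and the count below Control became 1 in BA at 0 h, 1 in BA at 24 h and 1 in BF at 4 h. ALB was 30.9% of the summed RPKM in BA at 4 h. With columns rescaled to the same total, the count became 1 in BA at 4 h and 1 in BF at 24 h against 0 h. Against Control the count became 3 in BA at 4 h and 2 in BF at 0 h. With ALB left out of the total it became 3 in BF at 0 h. A 1.5-fold limit gave 2, 1 and 2 genes lower at 4 h in Control, BA and BF, 4 in BA and 4 in BF at 12 h, and 5 in Control and 3 in BA at 24 h. Against Control it gave 3 in BA at 4 h, 3 in BF at 0 h and 1 each in BF at 12 and 24 h, and 1 gene lower in BF than in BA at 12 h. SERPINA6 between BF and BA at 12 h fell below 2-fold with a pseudocount of 10 RPKM (0.83) and with both rescaled totals (0.98). The share of all genes past 2-fold in a comparison was 1.71% to 17.8%, and 1.23% to 12.4% without a filter or 2.26% to 35.0% for means of 100 RPKM or more.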
